A study of Mus musculus with 4 samples.

Results

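Nodal signalling was read at the level of its ligands, its co-receptor, its secreted inhibitors and the enzymes that cut its precursors. The members were 9 genes taken by name, with every probe set assigned to them on the array: the ligands Nodal, Gdf3 and Gdf1, the co-receptor Tdgf1 (Cripto), the inhibitors Lefty1 and Lefty2, and the proprotein convertases Furin, Pcsk5 and Pcsk6. Of these 9 genes, 8 had a probe set of their own among the 18193 genes on the array, and all 8 passed the filter on dim probe sets, as did 12849 genes in all. The members held 15 probe sets, of which 14 were assigned to 1 gene and 11 passed the filter.

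The cells were derivatives of CAG-GFP EB3, a single mouse ES cell line of strain 129/Ola that expresses GFP from the ubiquitous CAG promoter, collected on day 18 of a differentiation through embryoid bodies with Activin at 10 ng/mL. Live GFP-positive cells were sorted with an antibody to KSP, the kidney-specific cadherin encoded by Cdh16, into KSP-positive cells, which were a small part of the culture, and KSP-negative cells. Both groups therefore shared the line, the GFP transgene, the Activin and the day, and differed in the sort. RNA of 2 samples of each group, from 2 independent experiments, was hybridized to 1 array each, and the comparison asked which transcripts distinguished the KSP-positive from the KSP-negative cells. The labels do not tie a replicate number to an experiment.

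Nodal is a ligand of the TGF-beta family that patterns the early embryo and induces mesoderm and endoderm, and ES cells make it themselves. It is secreted as a precursor that proprotein convertases cut, and it acts through the same type I and type II receptors as Activin, but unlike Activin it needs a co-receptor of the Cripto family. Phosphorylated Smad2 and Smad3 then enter the nucleus with Smad4 and partners such as Foxh1, where the targets include Nodal itself and the Lefty genes, whose products block Nodal in a feedback loop.

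Promoter windows are shown for 3 members that differed in their readout: Nodal and Tdgf1, which were both lower in KSP-positive cells, and Pcsk5, whose values were higher there without passing the test. Each window is 300 bases of RefSeq on GRCm38.p6, 250 before the annotated start and 50 after it, written 5′ to 3′ along the gene. Capitals mark matches, on either strand, to the Foxh1 pattern AATNNACA, the Smad element CAGAC, the GC box GGGCGG, the TATA box (spelled TATAAA) or the octamer ATTTGCAT. No matches overlapped each other.
Nodal, chr10:61417722-61418021, plus strand: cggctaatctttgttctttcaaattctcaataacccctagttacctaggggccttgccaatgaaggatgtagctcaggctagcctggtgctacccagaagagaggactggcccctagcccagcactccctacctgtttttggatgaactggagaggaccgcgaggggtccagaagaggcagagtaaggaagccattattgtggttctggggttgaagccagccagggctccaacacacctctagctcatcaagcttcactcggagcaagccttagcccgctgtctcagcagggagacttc
Tdgf1, chr9:110946109-110946408, minus strand: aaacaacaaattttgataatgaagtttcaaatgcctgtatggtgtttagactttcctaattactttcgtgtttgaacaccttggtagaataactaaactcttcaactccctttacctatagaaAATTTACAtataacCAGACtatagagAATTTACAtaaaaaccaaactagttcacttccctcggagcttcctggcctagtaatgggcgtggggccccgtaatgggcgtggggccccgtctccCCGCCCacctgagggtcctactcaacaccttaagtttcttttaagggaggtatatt
Pcsk5, chr19:17837583-17837882, minus strand: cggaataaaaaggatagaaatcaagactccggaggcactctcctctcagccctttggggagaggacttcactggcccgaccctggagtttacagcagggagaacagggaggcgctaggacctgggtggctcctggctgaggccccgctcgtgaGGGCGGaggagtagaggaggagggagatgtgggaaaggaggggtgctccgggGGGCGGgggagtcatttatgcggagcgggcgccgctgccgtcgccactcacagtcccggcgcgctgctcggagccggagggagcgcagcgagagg

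The Nodal window held no match to any of the patterns. The Tdgf1 window held AATTTACA 2 times, with first bases at -127 and -101 from the start, and CAGAC lay between them at -113. Over 32817 windows of this length in the table, 12.2% held the Foxh1 pattern and 49.6% held CAGAC, so the first is the rarer match. A GC box, in the form CCGCCC, lay at -6 of Tdgf1. The Pcsk5 window held GGGCGG 2 times, at -97 and -45, where 35.6% of windows held it at least 1 time. TATAAA was in 13.6% of windows and the octamer in 1.74%, and neither was in these 3. A match is a run of letters and does not show that a factor binds there.

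The windows also differed in base composition. GC content was 54.0% for Nodal, 41.7% for Tdgf1 and 65.7% for Pcsk5, beside a median of 52.7% over all windows. The observed over expected ratio of CpG was 0.229 for Nodal, 0.545 for Tdgf1 and 0.725 for Pcsk5, beside a median of 0.383. Furin had 1 window with 82.3% GC and another with 51.3% GC and a TATAAA at -23, and the Pcsk6 window had 81.7% GC. The convertase windows were thus GC-rich except for the second of Furin. Windows were listed for 6 members, 8 windows in all. Those of Gdf1 included 1 identical to that of Cers1.

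Nodal, Tdgf1 and Lefty2 fell in KSP-positive cells, by 6.30-fold (Lefty2), 8.75-fold (Nodal) and 12.8-fold (Tdgf1), and no member was called higher. Values are log2 of the MAS5 signal with the 75th percentile of every array set equal, and a call is an adjusted p under 0.05 in limma over the 12849 genes. Of the 8 members tested, 3 were called lower, where 1.65% of all genes tested were, and 0 were called higher, where 1.84% of all genes were. Without KSP-negative replicate 2 only Nodal was called. By size alone, 5 members were more than 2-fold lower (7.66% of all genes) and 0 more than 2-fold higher (7.92%). In 5 members both KSP-positive arrays lay below both KSP-negative arrays (24.6% of all genes), and in 1 member both lay above (24.4%). The median difference, KSP-positive minus KSP-negative, was -1.82 over the 8 members and -0.03 over all genes tested.

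**Figure D1:**
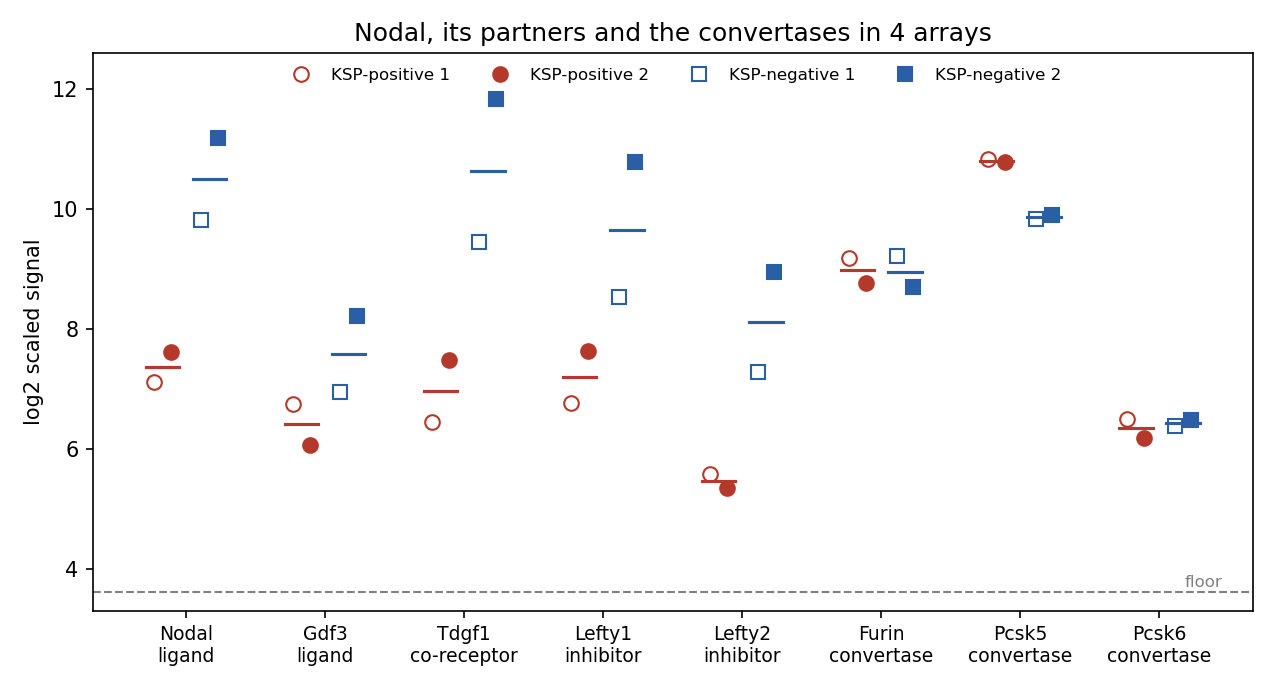
Log2 scaled signal (y axis) of the 8 tested members, by the probe set that stands for each gene, in the KSP-positive arrays (red circles) and the KSP-negative arrays (blue squares), with replicate 1 open and replicate 2 filled. Short lines are group means and the dashed line is the floor at 3.62. The ligands, Tdgf1 and the Lefty genes lie lower in both KSP-positive arrays, Furin and Pcsk6 overlap, and Pcsk5 lies higher in both KSP-positive arrays. Heights of different genes come from different probes and are not comparable.

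Of the ligands, Nodal passed the test. Values of a group are given throughout with replicate 1 first. Its log2 signal was 7.12 and 7.61 in KSP-positive cells (replicates 1 and 2) against 9.82 and 11.18 in KSP-negative cells. The groups did not overlap, and the lower KSP-negative array stood well above the higher KSP-positive array. The means were 7.37 ± 0.35 (SD, n = 2) and 10.50 ± 0.96 (SD, n = 2), a difference of -3.13 (standard error 0.46, 95% confidence interval -4.15 to -2.11). Nodal was thus 8.75-fold lower in KSP-positive cells (interval 4.32 to 17.7), with an adjusted p of 0.00725 from limma. In bulk samples such as these, fewer cells of a type and less RNA per cell cannot be told apart.

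The other Nodal probe set, 1422057_at, was dim and did not pass the filter. Both KSP-positive arrays were at the floor of 3.62, while KSP-negative replicate 1 read 4.64 and replicate 2 read 5.70. The order of the groups was that of the brighter probe set, but the size of the gap here is set by the floor.

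Gdf3, a related ligand made by ES cells and the early embryo, was lower in both KSP-positive arrays by a small margin. It had log2 signals of 6.76 and 6.07 in KSP-positive cells against 6.95 and 8.22 in KSP-negative cells. KSP-negative replicate 1 was only 0.20 above the higher KSP-positive array, and KSP-negative replicate 2 stood apart from the other arrays. The difference of -1.18 (standard error 0.50, interval -2.28 to -0.07) had an adjusted p of 0.247 and did not pass. On its dim probe set, 1460057_at, the groups overlapped, with 3.62 (the floor) and 4.16 against 4.01 and 6.62.

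Gdf1, a ligand that pairs with Nodal in left-right patterning, could not be read on its own. Its probe set 1416900_s_at is assigned to both Gdf1 and Cers1, a ceramide synthase gene that shares a transcript with it, so no value can be credited to Gdf1. That probe set was under the filter and untested, with 5.24 and 4.33 in KSP-positive cells against 3.72 and 3.62 in KSP-negative cells. The KSP-positive values were the higher ones, and the lowest KSP-negative value was at the floor.

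Tdgf1, the co-receptor that Nodal needs and that Activin does not, had the largest difference of the members. Its log2 signal was 6.44 and 7.49 in KSP-positive cells (replicates 1 and 2) against 9.45 and 11.83 in KSP-negative cells. The groups did not overlap, and the KSP-negative replicates were themselves 2.38 apart. The means were 6.96 ± 0.74 (SD, n = 2) and 10.64 ± 1.68 (SD, n = 2), a 12.8-fold lower signal in KSP-positive cells (interval 4.68 to 34.9), with an adjusted p of 0.0147. Without KSP-negative replicate 2 the difference was -2.49 with an adjusted p of 0.0637, so the call rests on that array.

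The feedback inhibitors Lefty1 and Lefty2 both had lower values in KSP-positive cells, and Lefty2 passed the test. Lefty2 had log2 signals of 5.57 and 5.35 in KSP-positive cells against 7.29 and 8.95 in KSP-negative cells. The KSP-positive arrays were close together, and a gap of 1.72 separated them from the lower KSP-negative array. The difference was -2.66 (standard error 0.54, interval -3.85 to -1.46), a 6.30-fold fall with an adjusted p of 0.026. Without KSP-negative replicate 2 it was -1.83 with an adjusted p of 0.219, which ends that call too.

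Lefty1 had log2 signals of 6.77 and 7.64 in KSP-positive cells (replicates 1 and 2) against 8.53 and 10.79 in KSP-negative cells. The groups did not overlap, but the KSP-negative arrays were 2.27 apart. The difference of -2.46 (standard error 0.63, interval -3.84 to -1.07) had an adjusted p of 0.0622 and missed the threshold. It passed with the values as deposited (adjusted p = 0.00251), without KSP-positive replicate 2 (difference -2.89, adjusted p = 0.000914) and without KSP-negative replicate 1 (difference -3.59, adjusted p = 0.00305). Without KSP-negative replicate 2 the difference was -1.32. The Lefty genes are close paralogs, and how far their probe sets detect each other's transcripts was not tested.

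None of the convertases passed the test, and Furin and Pcsk6 had differences close to 0. Furin, a convertase of the secretory pathway present in most cells, had log2 signals of 9.19 and 8.77 in KSP-positive cells against 9.21 and 8.70 in KSP-negative cells. The groups overlapped fully, with a difference of 0.03 (interval -0.78 to 0.84, adjusted p = 0.979). The interval still allows a change of somewhat under 2-fold in either direction.

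Pcsk6 (PACE4), the secreted convertase that acts on Nodal precursors together with Furin, had log2 signals of 6.50 and 6.18 in KSP-positive cells against 6.39 and 6.49 in KSP-negative cells. These also overlapped, with a difference of -0.09 (interval -1.06 to 0.87, adjusted p = 0.944). Here the lower bound reaches just past 2-fold.

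Pcsk5 (PC5/6), which cleaves other TGF-beta family precursors such as that of Gdf11, had log2 signals of 10.83 and 10.79 in KSP-positive cells against 9.84 and 9.91 in KSP-negative cells. It was the 1 member higher in both KSP-positive arrays, with an SD of at most 0.05 between the replicates of a group. The difference was 0.94 (standard error 0.33, interval 0.22 to 1.65), or 1.91-fold, with an adjusted p of 0.155, and it did not pass. Its values lay between 0.84 and 1 under the 14 limma alternatives tried.

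Pcsk5 was read by 5 probe sets, and the difference was above 0 on each. On 4 of them both KSP-positive arrays were above both KSP-negative arrays. Probe set 1451406_a_at had 8.77 and 8.89 against 8.21 and 7.43, and 1438248_at had 6.88 and 5.62 against 4.63 and 5.39. The dim 1424605_at, under the filter, had 6.17 and 5.58 against 3.95 and 4.84. On 1452475_at the groups overlapped, with 6.48 and 5.15 against 5.74 and 5.52. The probe sets of 1 gene read the same RNA samples and are not replicates.

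With each probe set tested on its own over the 27022 past the filter, 1 of the 11 member probe sets was called lower, that of Nodal (adjusted p = 0.0384), and 0 were called higher. The shares over all probe sets were 0.296% and 0.307%. Tdgf1 had an adjusted p of 0.0675 in that fit.

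**Figure D2:**
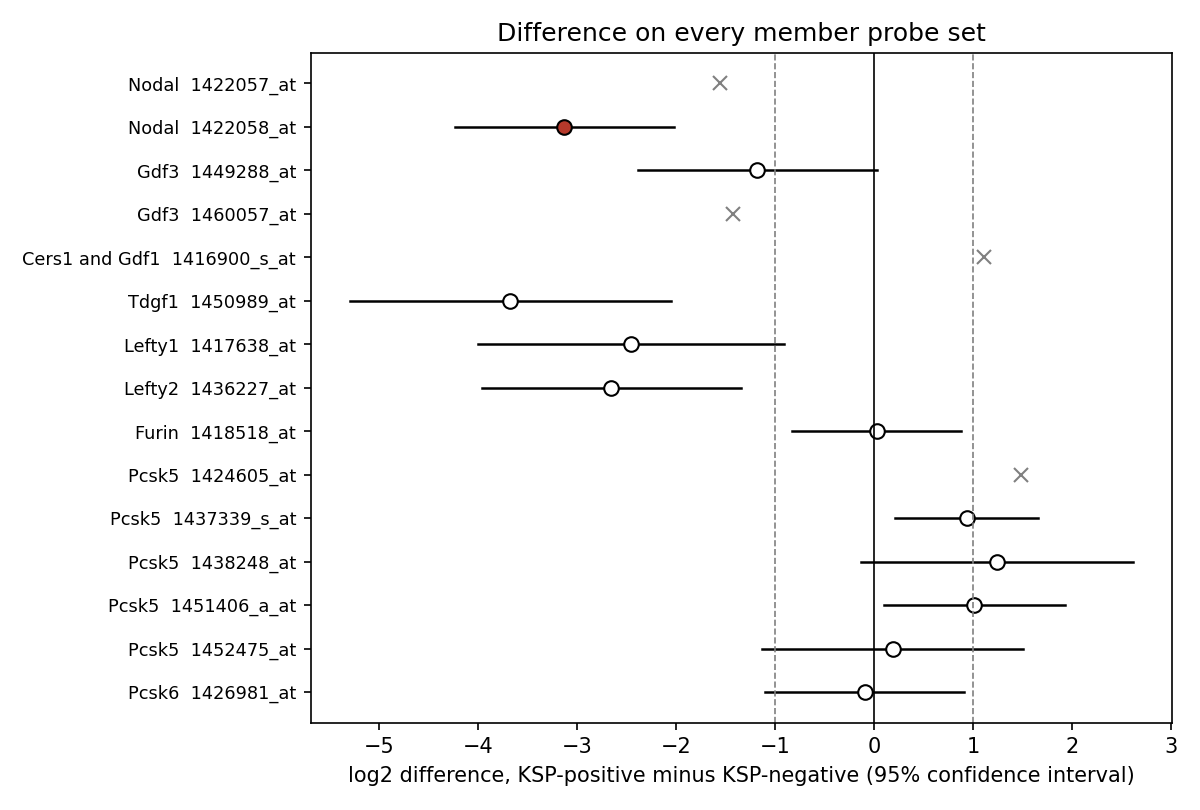
Log2 difference, KSP-positive minus KSP-negative (x axis), on each of the 15 member probe sets. Points are the difference of means with lines for the 95% confidence interval in the fit per probe set, red where the adjusted p is under 0.05, and crosses are probe sets under the filter, with no test. Dashed lines mark 2-fold. The Nodal probe set 1422058_at is the 1 that passed, and every Pcsk5 probe set lies right of 0.

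The order of the arrays was much alike for the members that were lower. Nodal, Tdgf1, Lefty1, Lefty2 and Gdf3 were each highest in KSP-negative replicate 2. That array exceeded KSP-negative replicate 1 by 1.36 for Nodal, 2.38 for Tdgf1, 2.27 for Lefty1, 1.66 for Lefty2 and 1.27 for Gdf3, on the log2 scale. Over all genes tested this gap had a median of 0.20, with 5% of genes below -0.92 and 5% above 1.19, so all 5 members lay in the top 5%. Between the KSP-positive replicates, replicate 2 was above replicate 1 by 0.49 for Nodal, 1.04 for Tdgf1 and 0.87 for Lefty1, and below it for Lefty2 and Gdf3.

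The markers of undifferentiated ES cells, for which the sort had no gate, moved with these members. Of 12 such markers 11 were tested, 10 were lower in KSP-positive cells and 0 higher, with a median difference of -3.51. Pou5f1 differed by -4.33, Nanog by -5.40 and Fgf4 by -4.93, and KSP-positive replicate 1 was at the floor for Nanog and Fgf4. Klf4, the remaining marker, differed by 0.35 (adjusted p = 0.611). On its other probe set, 1417395_at, it differed by 1.105 (adjusted p = 0.194 in the fit per probe set). Both KSP-positive arrays were above both KSP-negative arrays on each. The summed signal of the list was 7929 and 8573 in KSP-positive cells against 16900 and 27230 in KSP-negative cells. Klf4 held most of the KSP-positive sums, and over the other 10 markers the sums were 1355 and 1593 against 11930 and 21520. KSP-negative replicate 2 exceeded replicate 1 for 11 of 11 markers, with a median gap of 1.04. The part of these cells in the fall of Nodal, Tdgf1 and Lefty2 was not tested.

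**Figure D3:**
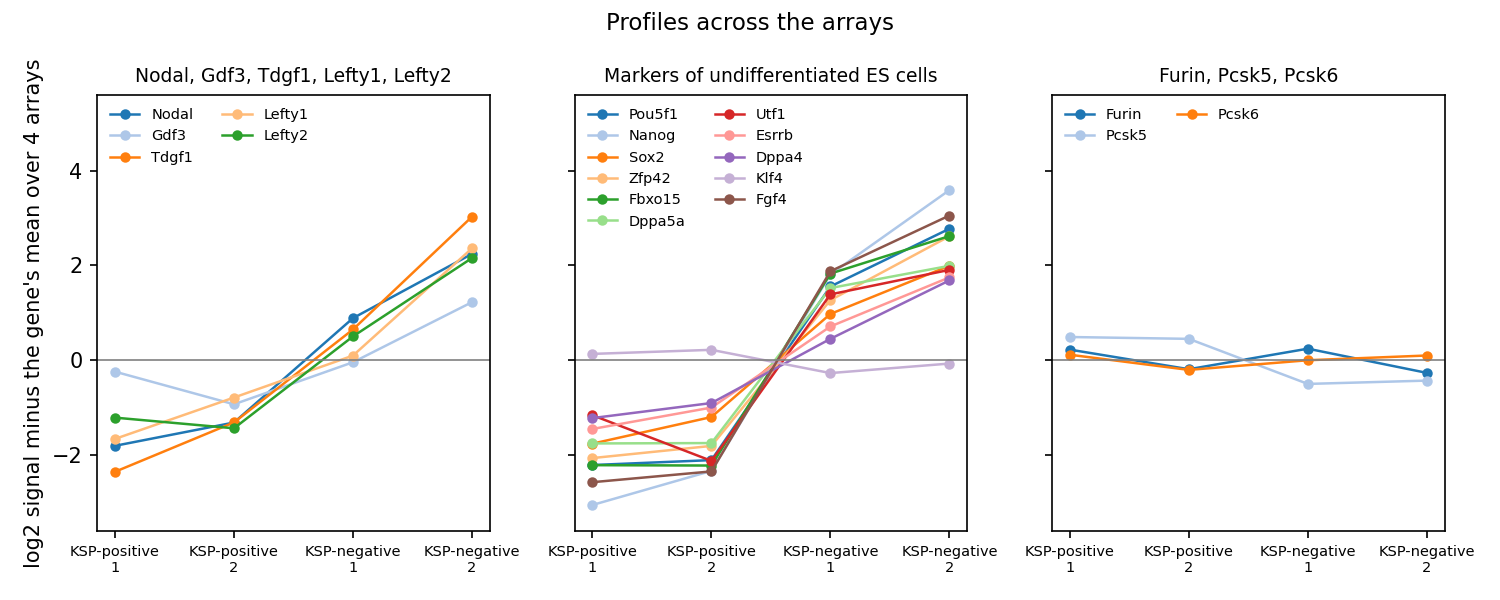
Log2 signal of each gene minus its own mean over the 4 arrays (y axis), for the arrays in the order KSP-positive 1 and 2, KSP-negative 1 and 2 (x axis). Panels hold the 5 ligand, co-receptor and inhibitor genes, the 11 tested markers of undifferentiated ES cells, and the 3 convertases, and lines only join the points of a gene. The first panel peaks in KSP-negative replicate 2, as do the ES cell markers other than Klf4, while the convertases stay within about 0.5 of their means.

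Markers of other cells also differed between the fractions. Of the 10 macrophage markers tested 9 were higher in KSP-positive cells (median difference 3.34), and their summed signal was 20940 and 9490 there against 1543 and 1426. Of the 9 mesenchyme markers 4 were higher (median 1.81). Among 11 endoderm markers, Ttr and Hnf4a were called lower and none was called higher, with a median of -1.23. Their sums were 15810 and 9150 against 25960 and 21110. The difference was below 0 for 9 of the 11. Gata6 went the other way, by 1.13 (adjusted p = 0.161), and was higher in both KSP-positive arrays. None of the 6 endothelial markers passed, but the KSP-positive arrays differed in them. Replicate 2 exceeded replicate 1 for all 6, with a median gap of 2.31 where that of all genes tested was 0.03. Of the 6 trophoblast markers tested, 2 were called lower, Cdx2 and Tfap2c, and 4 had a difference below 0. Plac1 was higher in both KSP-positive arrays, by 1.06 (adjusted p = 0.139). Of the 7 neuronal markers tested 1, Stmn2, was called lower. On the other Stmn2 probe set, 1423281_at, the groups overlapped, with a difference of -0.81 (adjusted p = 0.582 in the fit per probe set). The part of these cells in the members' values was not tested.

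The sorted antigen itself was not separated at the RNA level. Cdh16, which encodes KSP, had log2 signals of 5.66 and 5.03 in KSP-positive cells against 5.30 and 4.72 in KSP-negative cells. These overlap, with a difference of 0.34 (interval -0.92 to 1.60, adjusted p = 0.816). The signals were dim, close to the filter at 5.14, and the interval still allows a rise of 3.03-fold in KSP-positive cells. Of 10 kidney tubule markers 4 were tested and none was called, and Umod, Slc12a1, Slc12a3, Aqp2 and Pax8 were under the filter. The fractions are therefore called by the sort and not by a cell type.

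The rest of the pathway was read from lists of 35 other genes, of which 28 were tested. Of these 5 were lower, 0 were higher and 23 did not pass, where 1.65% of all genes were lower and 1.84% higher. Both KSP-positive arrays lay below both KSP-negative arrays for 15 genes and above them for 3, where the shares over all genes were 24.6% and 24.4%. The median difference was -0.38. All 5 calls were among the target genes, and without KSP-negative replicate 2 the count fell to 1.

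Among the receptors, 4 of 5 genes were tested and none was called, with a median of -0.28. Cfc1 (Cryptic), the other co-receptor of the Cripto family, had log2 signals of 7.48 and 7.31 in KSP-positive cells against 8.66 and 8.52 in KSP-negative cells. Its groups did not overlap, but the difference of -1.19 had an adjusted p of 0.105. The type II receptors, which bind both Nodal and Activin, differed by -0.68 for Acvr2b (adjusted p = 0.402) and by 0.16 for Acvr2a (adjusted p = 0.861). On another Acvr2b probe set past the filter, 1439856_at, the difference was -1.59 (adjusted p = 0.222 in the fit per probe set). Both KSP-positive arrays were lower there, at 4.85 and 5.36 against 6.99 and 6.41. Acvr1c, a type I receptor, was under the filter.

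The Smads and their nuclear partners, 15 genes, were all tested and none was called, with a median of -0.10. Foxh1, the Smad partner at Nodal targets, had log2 signals of 5.65 and 5.10 in KSP-positive cells against 6.85 and 7.67 in KSP-negative cells. Both KSP-positive arrays were lower, with a difference of -1.89 and an adjusted p of 0.0629 that missed the threshold. Tgif1, a repressor of Smad targets, differed by -1.18 (adjusted p = 0.151), and Trim33, a cofactor of Smad2 and Smad3, by -0.78 (adjusted p = 0.219). On another Trim33 probe set past the filter, 1455189_at, the difference was 0.006 and the groups overlapped. The signal carriers, named here after their values were seen, differed by -0.04 for Smad2, -0.20 for Smad3 and -0.41 for Smad4. Smad4 also differed by -0.32 on 1422487_at and by 0.21 on 1422485_at, where the groups overlapped.

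Of the other inhibitors, 2 of 3 were tested. Cer1, a secreted antagonist of Nodal, had log2 signals of 4.48 and 5.53 in KSP-positive cells against 6.31 and 7.89 in KSP-negative cells. These did not overlap, and like the Lefty genes Cer1 was highest in KSP-negative replicate 2, but the difference of -2.10 had an adjusted p of 0.0956. Nomo1, a Nodal modulator of the endoplasmic reticulum, differed by -0.25 (adjusted p = 0.778). Dand5, an antagonist active in left-right patterning, was under the filter.

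Target genes held every call of the other pathway genes, with 5 of the 7 tested called lower, 0 higher and a median of -2.29. Mixl1, a homeobox gene of the primitive streak, had log2 signals of 4.81 and 3.80 in the KSP-positive replicates against 6.94 and 8.86, a difference of -3.59 (standard error 0.65, adjusted p = 0.0155). Eomes, a T-box gene needed for endoderm, had 6.82 and 7.95 against 10.04 and 10.85, a difference of -3.06 (standard error 0.45, adjusted p = 0.00736). In both genes the KSP-negative arrays stood clear of the KSP-positive arrays. Both KSP-positive values of Mixl1 were under the filter at 5.14 and not far above the floor of 3.62. Mixl1 thus passed the filter only through its KSP-negative values, unlike Eomes.

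The other called targets were transcription factors of the anterior streak and its derivatives. Otx2, a gene of the epiblast and anterior neural tissue, fell by 2.44 (adjusted p = 0.0293), Lhx1, of the node and later of the kidney, by 2.29 (adjusted p = 0.0346) and Foxa2, of the node and endoderm, by 2.01 (adjusted p = 0.0254). The endoderm genes Sox17, with a difference of -1.90 (adjusted p = 0.267), and Hhex, with -1.56 (adjusted p = 0.185), did not pass, and in both KSP-positive replicate 2 was well above replicate 1. Gsc, Fgf8 and Wnt3 were under the filter, and for Gsc and Fgf8 both KSP-positive arrays were at the floor. Many of these genes have inputs other than Nodal, and their values show the transcript level and not the activity of the pathway.

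The remaining genes of the convertase family, a list that also holds the inhibitor Pcsk1n, were like Furin and Pcsk6 in having no call. Of 7 listed, 4 were tested, with a median difference of 0.24 and a range from -0.06 to 0.55. The lowest was Mbtps1, named here after its values were seen. On its dimmer probe sets it differed by -2.07 (1431385_a_at, with KSP-positive replicate 1 at the floor) and by -0.95 (1431386_s_at). Both KSP-positive arrays were lower on each, and neither passed in the fit per probe set (adjusted p = 0.261 and 0.403). Pcsk7, a convertase of the secretory pathway, differed by 0.36 (adjusted p = 0.688), Pcsk4, known from germ cells, by 0.55 (adjusted p = 0.75) and Pcsk1n, an inhibitor of Pcsk1, by 0.13 (adjusted p = 0.919). Pcsk1 was under the filter.

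**Figure D4:**
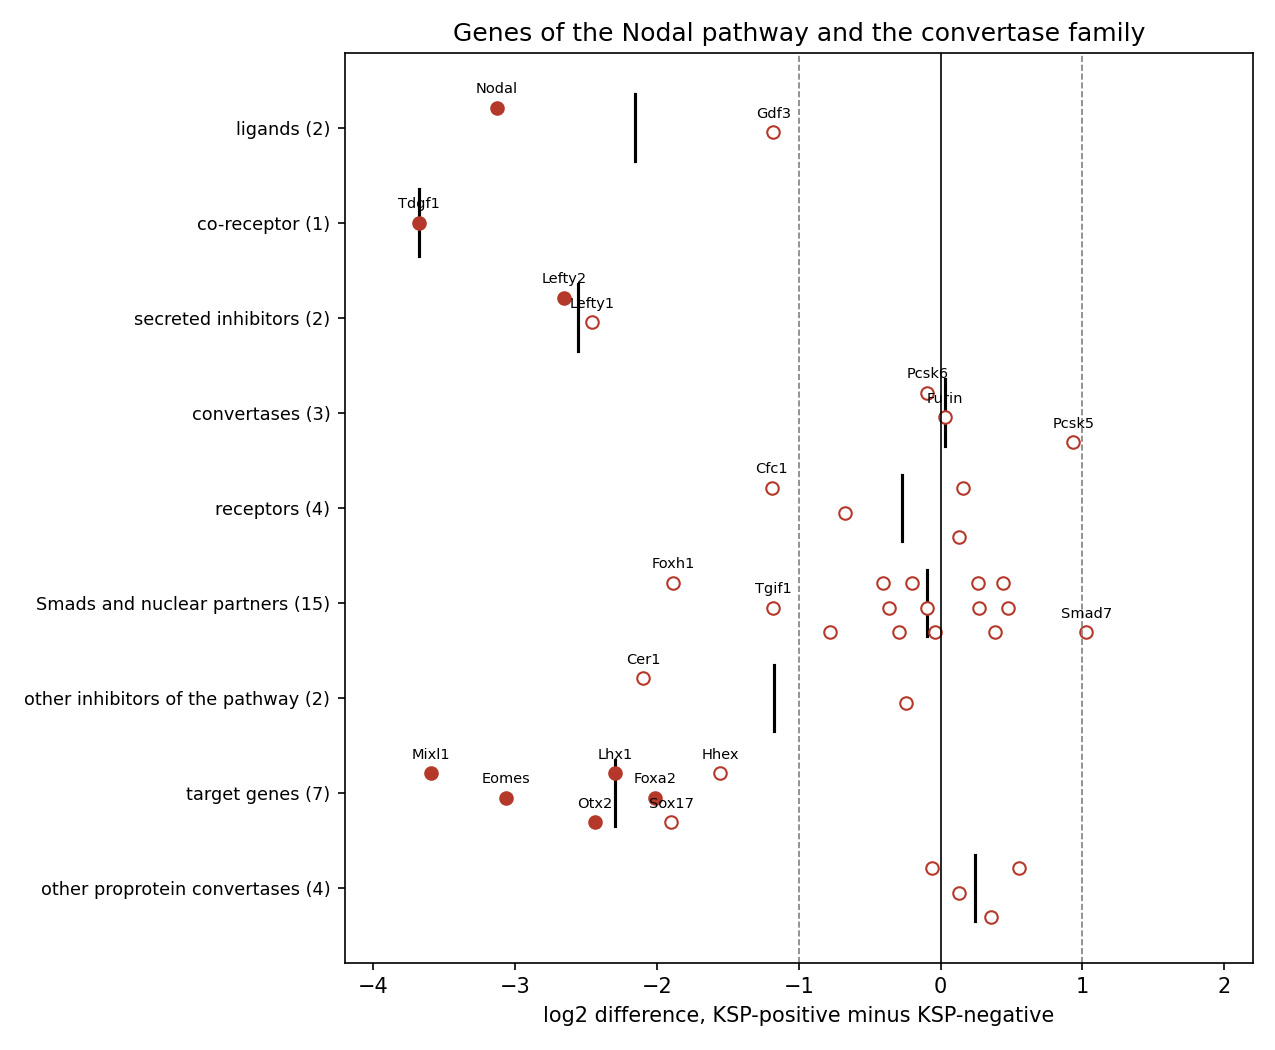
Log2 difference, KSP-positive minus KSP-negative (x axis), of each tested gene by list, with the number tested in brackets. Filled points have an adjusted p under 0.05, black bars are list medians, dashed lines mark 2-fold, and names are given for the members and for genes past 2-fold. The 8 filled points are Nodal, Tdgf1, Lefty2, Mixl1, Eomes, Otx2, Lhx1 and Foxa2, all on the lower side.

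The genes with the profiles most like those of the called members were found by the root mean square distance over the 4 arrays, after each gene's mean was subtracted. Those nearest to Nodal were Ap1s3 (distance 0.117), Rpl39l (0.121) and Sox2 (0.147). Sox2, a transcription factor of ES cells and neural progenitors, had log2 signals of 8.53 and 9.09 in KSP-positive cells against 11.27 and 12.29 in KSP-negative cells. The nearest to Tdgf1 were Map7d2 (0.234), L1td1 (0.273) and Dnmt3l (0.322), and those nearest to Lefty2 were Stmn3 (0.122), Uba1y (0.141) and Sp5 (0.161). Among the members themselves Nodal and Lefty2 were 0.363 apart and Furin and Pcsk6 0.227, while Tdgf1 and Pcsk5 were the farthest apart at 2.48. With 4 arrays many genes share such a profile, and these distances are descriptions.

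How the calls moved with the processing differed between members. Of 14 alternatives that used limma, Nodal passed under 13, with a difference from -3.81 to -2.45. Tdgf1 and Lefty2 each passed under 12, Lefty1 under 4, and Gdf3, Furin and Pcsk5 under 0 of 14. With no filter on dim probe sets, none of the 18193 genes was called by limma, where 2275 genes, 4 of them members, had an unadjusted p under 0.05. The differences of Nodal, Tdgf1, Lefty1, Lefty2, Gdf3 and Pcsk5 kept their sign under every alternative, and those of Furin and Pcsk6, close to 0, did not. The methods' t-test called 0 of all 12849 genes after adjustment, and so 0 members.

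**Figure D5:**
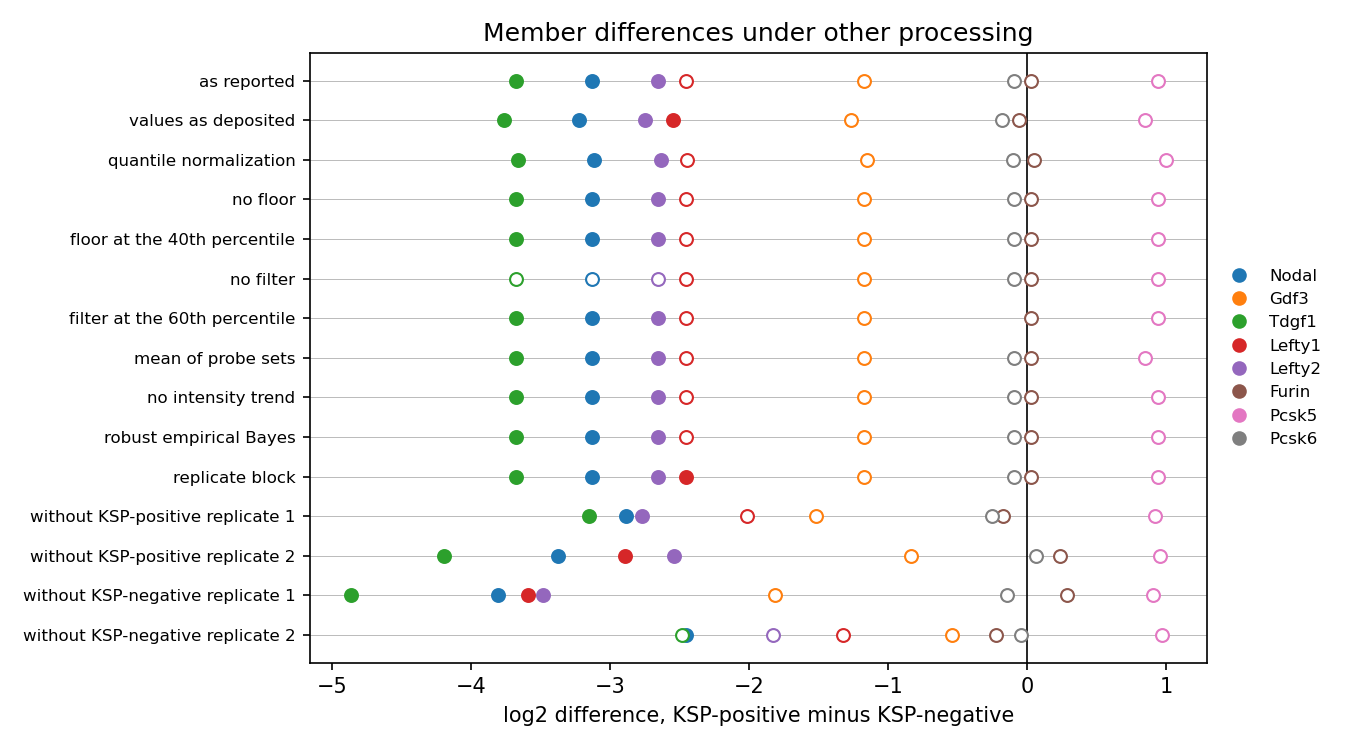
Log2 difference, KSP-positive minus KSP-negative (x axis), of the 8 tested members as reported and under each alternative (y axis). Filled points have an adjusted p under 0.05. Leaving out KSP-negative replicate 2 moves Nodal, Tdgf1, Lefty1 and Lefty2 toward 0, leaving out KSP-negative replicate 1 moves them away from it, and Pcsk5 stays near 0.94.

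The arrays differed somewhat in overall signal. The 75th percentile of the deposited signals was 226 to 321, between 16.8% and 22.9% of probe sets were at the floor, and the 3′ to 5′ signal ratio of the actin control probe sets ran from 1.79 to 3.55. That ratio was highest in KSP-negative replicate 2, the array with the highest Nodal, Tdgf1 and Lefty signals, and its part in them was not tested.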

How the data were processed

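Total RNA was purified with the RNeasy kit, amplified in 2 cycles, labelled with biotin and hybridized to Affymetrix arrays. The authors deposited signal intensities on a linear scale, 1 per probe set and array, from MAS5 as the submitters' notes name it. They analysed them in GeneSpring, with a setting not given in the sources used here. Probe sets were named through GEO's platform annotation.

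Each array was scaled to a 75th percentile of 281 and values under the 20th percentile (12.3) were raised to it before log2 was taken. Of 45037 probe sets, 27022 had a mean log2 over 5.14 (the 40th percentile) and were kept. Where several probe sets read only that gene, the brightest was used for it, and 18193 genes had such a probe set before this filter. KSP-positive and KSP-negative cells were tested against each other in limma 3.58.1 in R 4.3.3, without pairing. The fit used empirical Bayes with an intensity trend, and Benjamini and Hochberg adjustment over 12849 genes. The procedure was also run on simulated data with independent normal noise. Such data cannot show how it handles the floor or an array that stands apart. An exact permutation test of 2 against 2 arrays cannot reach 0.05, so none was used. P-values measure only the spread between these samples. The number of arrays limits the precision.

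The members and lists were chosen with earlier results of these data known. All members are named. Of other lists, up to 6 genes past the threshold and up to 3 others with the smallest p are named, and exceptions are marked. As alternatives, the test was repeated on unscaled deposited values, after quantile normalization, with other floors and filters, on means of probe sets, without the intensity trend, with robust moderation, with a replicate block, by the methods' t-test, and without each array. Promoter windows came from the RefSeq table of GRCm38.p6. Probe and protein sequences were not used here.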

Additional observations from a re-analysis of the deposited data

How the results depend on the processing

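Of all 12849 genes tested, the methods' t-test called 0 after adjustment, and without adjustment 570 lower and 666 higher. The count of members called lower, 3 as reported, was 0 with no filter and 0 with that t-test after adjustment. It was 1 with that test unadjusted, where 1 member, Pcsk5, was also called higher, and it ran from 1 to 4 when each array was left out in turn. The lowest count came without KSP-negative replicate 2, where Nodal remained. The count of other pathway genes called lower, 5 as reported, was 0 with no filter, 3 with a filter at the 60th percentile, 0 with the methods' t-test after adjustment, and 1 to 8 when each array was left out, lowest without KSP-negative replicate 2 and highest without KSP-positive replicate 2. The count called higher there ran from 0 to 1, with the 1 also without KSP-positive replicate 2. The differences of the 3 called members kept their sign under every alternative.

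The replicate numbers were not treated as pairs, since no source ties them to experiments. The deviations of same-numbered arrays correlated at 0.166 over genes, which does not settle whether they were pairs. With the replicate block, 4 members were called lower, Lefty1 (adjusted p = 0.00157) beside the 3 reported, and 11 other pathway genes.

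Over all genes, 448 were called as reported, 0 with no filter, 124 without KSP-negative replicate 2, and 1131 with the replicate block. A gene near the floor has a difference that the floor bounds. With 2 arrays per fraction, a member that misses the threshold may still differ. Where an array was left out, the lone array of its fraction was taken to vary like the other fraction.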

Other observations

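Some other pathway genes were read by several probe sets. They were chosen after their values were seen. Of the probe sets named here and tested alone, the 1 that passed was 1450428_at of Lhx1 (adjusted p = 0.0472 from limma). Its KSP-positive values were at or near the floor. Pmepa1, an inhibitor that TGF-beta signals induce, had 3 probe sets past the filter, with log2 differences of 0.44 on 1422706_at, 1.09 on 1422705_at and 1.97 on 1452295_at, and adjusted p of 0.639, 0.308 and 0.258. On each both KSP-positive arrays lay above both KSP-negative arrays. Smad7, an inhibitory Smad, differed by 1.03 on 1443771_x_at, where KSP-positive replicate 1 alone stood high at 12.04, and by 0.10 on 1423389_at, and the groups overlapped on both. Lhx1 differed by -2.29 on 1421951_at and by -3.90 on 1450428_at. On the latter KSP-positive replicate 1 was at the floor of 3.62 and replicate 2 read 3.68, both under the filter at 5.14. That probe set thus passed the filter only through its KSP-negative values, 6.62 and 8.47. The floor bounds both its difference and its KSP-positive spread. Foxh1 was lower in both KSP-positive arrays on each of 1422213_s_at (-1.89), 1437779_at (-2.24) and the dim 1422212_at (-1.15).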
